A study of Mus musculus with 6 samples.

Results

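The 40 genes described here start, brake or carry out cell division, and their RNA was measured in hearts that had lost Mrps5 from the cardiomyocytes. They were taken by gene name from a table of 54532 genes, and were chosen with earlier results of these data known. They were sorted by role into 11 genes of G1 and the G1/S step, 4 brakes, 9 genes of S phase and 16 genes of G2 and mitosis.

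A cell leaves G1 when D-type cyclins activate the kinases Cdk4 and Cdk6, which phosphorylate the retinoblastoma protein Rb1 and release E2F factors that switch on the genes of DNA replication. Inhibitors of the cyclin-dependent kinases, such as Cdkn1b, Cdkn1c and Cdkn2c, hold this step back. Later in the cycle, the B-type cyclins with Cdk1 drive mitosis, and the protein Mki67 is present in cycling cells but not in resting ones. Cardiomyocytes of the adult mouse have for the most part left the cycle and grow mainly by enlarging, while endothelial cells, fibroblasts and blood-borne cells of the heart can still divide.

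All 6 mice were Mrps5 fl/fl, with both copies of this mitochondrial ribosomal protein gene flanked by loxP sites, and all 6 received tamoxifen into the peritoneum at 45 mg/kg/day for 5 days from 8 weeks of age. Hearts were taken 12 weeks after tamoxifen. The 3 control mice (Ctrl) carried the floxed alleles alone, and the 3 knockout mice (cKO) also carried MCM, the αMHC-MerCreMer transgene, which makes a tamoxifen-activated Cre recombinase in cardiomyocytes. All other cells of the cKO hearts keep Mrps5. Since no Ctrl mouse carried MCM, an effect of the transgene and an effect of the deletion cannot be told apart. The labels name the tissue as heart and the study's methods as ventricle. The labels give 12 weeks as the time since tamoxifen, whereas the methods give the same figure as an age.

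Values of single hearts are given in the order of replicates 1 to 3. Mrps5 itself read 5.20, 6.45 and 6.33 FPKM in Ctrl and 1.12, 1.23 and 1.31 FPKM in cKO. FPKM counts fragments relative to gene length and library size, so levels of different genes can be set side by side. The 6 libraries held 15989322 to 24875499 reads in genes. Cardiomyocyte markers summed to 17522 to 22273 FPKM in Ctrl and 10622 to 18087 FPKM in cKO, with 6 of 10 called lower. Endothelial markers summed to 148 to 172 and 98.3 to 115 FPKM (5 of 8 called lower), and mural cell markers to 211 to 229 and 121 to 153 FPKM (1 of 7 higher, 3 lower). Fibroblast markers summed to 157 to 183 FPKM over all 6 hearts, with 3 of 8 called higher (Col1a1, Col3a1 and Postn) and 1 lower (Dcn), and macrophage markers to 136 to 217 FPKM, with 2 of 8 higher (Cx3cr1 and Fcgr1) and 1 lower (Csf1r). Neutrophil (3.37 to 35.6 FPKM, no call), red cell precursor (491 to 1770 FPKM, 1 of 5 lower) and mesothelial (1.49 to 6.72 FPKM, no call) sums overlapped between the groups, as did those of fibroblasts and macrophages. Lymphocyte markers summed to 0.350 to 1.31 FPKM over the 6 hearts, with Ms4a1 at 0 in each. The atrial marker Myl7 ranged from 18.1 to 679 FPKM within Ctrl. The library of cKO replicate 2 stood apart from the others: it had no read on Y-linked genes, and Xist was at 10.7 FPKM in it against at most 0.127 FPKM in the rest. These are the values of a female heart, and those of the rest are male. The labels give no sex, and the study states that its mice were all male. An effect of sex was not tested. Results without cKO replicate 2 are given for most of the genes called and for members whose overlap of groups rests on it. In such bulk RNA, fewer cells of a type and less RNA per cell cannot be told apart.

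Ccnd2 was the highest of the 40 genes, with a mean of 22.3 FPKM over the 6 hearts, and Cdc25c the lowest, at 0.0307 FPKM. 23 members had a mean of at least 0.5 FPKM and could be tested, and 17 lay under it, 14 of these mitotic. Among the 23, 1 was called higher in cKO (Ccnd2) and 3 were called lower (Cdkn1b, Cdkn1c and Cdkn2c), at an adjusted p under 0.05 by limma on log2(FPKM + 1), with Benjamini-Hochberg adjustment over 12944 genes. Over all genes tested, 16.3% were called higher and 17.0% lower, so calls among the members were no more frequent than in the table as a whole. Without Ctrl replicate 1 the members called higher were 2, with Cdk4 added, and without cKO replicate 2 the counts were 1 higher and 2 lower. The median log2 fold change of the 23 was −0.08, against −0.02 over all genes tested. By limma-voom on the reads recovered from the FPKM values, which can reach lower genes, 39 members were tested. Of these, 3 were called higher (Ccnd2, Cdk4 and E2f3) and 2 lower (Cdkn1b and Cdkn1c), against 14.0% and 13.2% of 17051 genes. Adding 1 to the FPKM understates the change of low genes, so voom values are also given for the members called and for several low genes. The 2 fits also differ in scaling: voom scaled the libraries by the median of ratios between hearts, and limma kept the deposited FPKM. With median-of-ratios scaling, limma also called Cdk4 and E2f3.

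**Figure D1:**
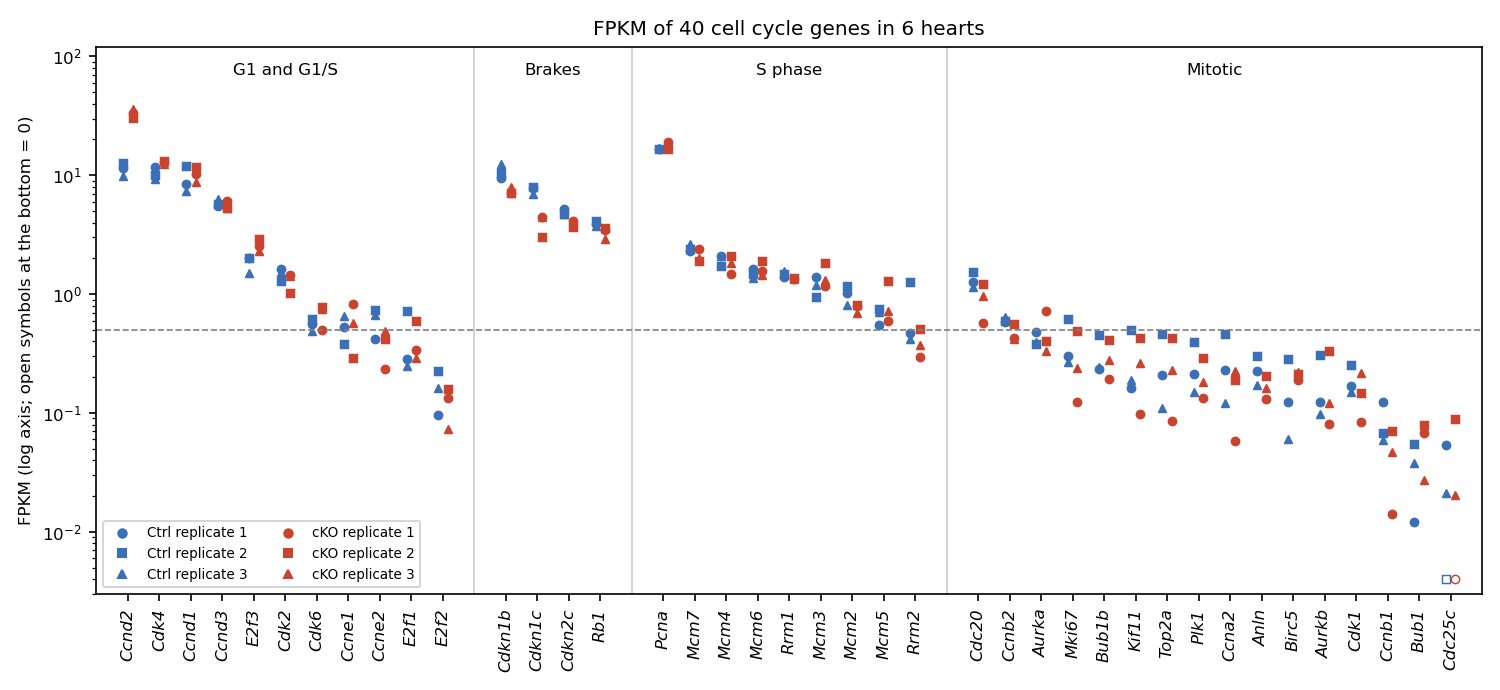
FPKM of each of the 40 genes in each of the 6 hearts on a log axis, with genes grouped by role and ordered by mean level, Ctrl in blue and cKO in red; the dashed line is the 0.5 FPKM minimum for testing and open symbols at the bottom stand for 0. The G1 genes and brakes on the left lie mostly above the line, and all mitotic genes but Cdc20 and Ccnb2 have a mean below it.

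The G1 genes were led by Ccnd2, which encodes cyclin D2. It stood at 11.5, 12.7 and 9.83 FPKM in the Ctrl hearts and at 33.6, 30.2 and 36.2 FPKM in the cKO hearts. Every cKO heart was far above every Ctrl heart, and the cKO mean was 294% of the Ctrl mean. The log2 fold change was 1.48 (SE 0.11, 95% interval 1.22 to 1.74, limma adjusted p = 0.000562, n = 3 and 3) on the log2(FPKM + 1) scale and 1.59 (voom adjusted p = 9.29e-05) on the read scale. This was the 112th largest increase among 12944 genes. Without cKO replicate 2 it was 1.55 (limma adjusted p = 0.00145). Ccnd2 (chromosome 6, 127125162 to 127152193, minus strand, coordinates as in the table, which correspond to GRCm38) rested on 2058 to 8574 reads per heart.

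The other D-type cyclins did not pass the test. Ccnd1, cyclin D1, stood at 8.41, 11.9 and 7.37 FPKM in Ctrl and 10.3, 11.8 and 8.72 FPKM in cKO, with overlapping groups (log2 fold change 0.16, 95% interval −0.26 to 0.58, limma adjusted p = 0.530). Ccnd3, cyclin D3, stood at 5.49, 5.74 and 6.28 FPKM in Ctrl and 6.02, 5.27 and 5.28 FPKM in cKO (−0.07, −0.26 to 0.13, limma adjusted p = 0.556), and its sign turned when the libraries were scaled without the genes of mitochondrial DNA (0.011). The make-up of the family differed accordingly. Ccnd2 gave 45.2%, 41.9% and 41.9% of the summed FPKM of the D-type cyclins in the Ctrl hearts and 67.3%, 63.8% and 72.1% in the cKO hearts. The summed level was 26.4 ± 3.55 FPKM in Ctrl and 49.1 ± 1.60 FPKM in cKO (mean ± SD, n = 3 each). Over all 11 G1 members, Ccnd2 took 6780 reads in the Ctrl hearts and 20552 in the cKO hearts, and the other 10 together 10291 and 11407.

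Cdk4, the main kinase partner of these cyclins in the table, made up 94.2% to 96.3% of the summed FPKM of Cdk4 and Cdk6 in each heart. It stood at 11.8, 10.1 and 9.35 FPKM in Ctrl and 13.1, 13.1 and 12.5 FPKM in cKO, so that the groups did not overlap. The log2 fold change was 0.29 (95% interval 0.07 to 0.51, limma adjusted p = 0.0513), and 0.34 by voom (adjusted p = 0.0385). Leaving out Ctrl replicate 1, the highest Ctrl heart, gave 0.37 (limma adjusted p = 0.0285), and leaving out cKO replicate 2 gave 0.27 (limma adjusted p = 0.0988). Cdk4 shares 641 exon bases on the opposite strand with Tspan31, which stood at 16.0 FPKM in Ctrl and 19.2 FPKM in cKO. It is not stated whether reads were counted by strand, so reads of the shared stretch cannot be assigned to one gene or the other.

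E2f3, an E2F factor that activates genes of S phase, stood at 2.02, 2.00 and 1.5 FPKM in Ctrl and 2.55, 2.93 and 2.28 FPKM in cKO. These groups did not overlap either. The log2 fold change was 0.34 (95% interval 0.08 to 0.60, limma adjusted p = 0.0531), and 0.54 by voom (adjusted p = 0.0359). Without cKO replicate 2 it was 0.27 (limma adjusted p = 0.121). The remaining G1 members were low. Cdk2, Cdk6 and Ccne1 lay between 0.290 and 1.64 FPKM in single hearts, with limma adjusted p from 0.430 to 0.907. Ccne2, E2f1 and E2f2 were under the limit for testing. E2f2, the lowest G1 member, stood at 0.0967, 0.227 and 0.161 FPKM in Ctrl and 0.133, 0.158 and 0.0733 FPKM in cKO, from 9 to 23 reads per heart. None of these 6 was called by voom.

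Promoters of Cdk4 and E2f3 are shown because both genes rose by voom. They cover 180 bases before and 30 after the transcription start in RefSeq, build GRCm38.p6. Capitals in the Cdk4 promoter (chr10:127063355-127063564, plus strand) mark the E-box CACGTG, the sequence that MYC and related factors bind. Capitals in the E2f3 promoter (chr13:29986034-29986243, minus strand) mark 2 overlapping matches to E2F letters. A second RefSeq window of E2f3, not shown, held the E-box. No window for Ccnd2 was in the table used.
Cdk4: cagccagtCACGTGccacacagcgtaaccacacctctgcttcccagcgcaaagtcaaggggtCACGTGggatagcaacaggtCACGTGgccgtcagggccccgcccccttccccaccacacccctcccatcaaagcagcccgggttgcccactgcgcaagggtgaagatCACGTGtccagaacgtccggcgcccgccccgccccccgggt
E2f3: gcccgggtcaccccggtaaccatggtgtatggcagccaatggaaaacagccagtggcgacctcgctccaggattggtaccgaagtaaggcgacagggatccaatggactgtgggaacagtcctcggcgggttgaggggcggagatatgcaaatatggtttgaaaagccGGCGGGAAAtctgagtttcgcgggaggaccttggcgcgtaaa
The E-box, which reads the same on both strands, occurred 4 times in the Cdk4 window and in 3 of 11 windows of G1 members (Cdk4, Cdk6 and E2f3), against 7.15% of 32851 windows of the same 300 bases over all genes. The E2F letters searched on both strands were TTTCCCGC, TTTGGCGC, TTTCGCGC, TTTGCCGC and TTCCCGCC, which can overlap one another. They occurred in 3 of 11 G1 windows and in 3.89% of all windows. A match of letters is a description and not a binding site.

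**Figure D2:**
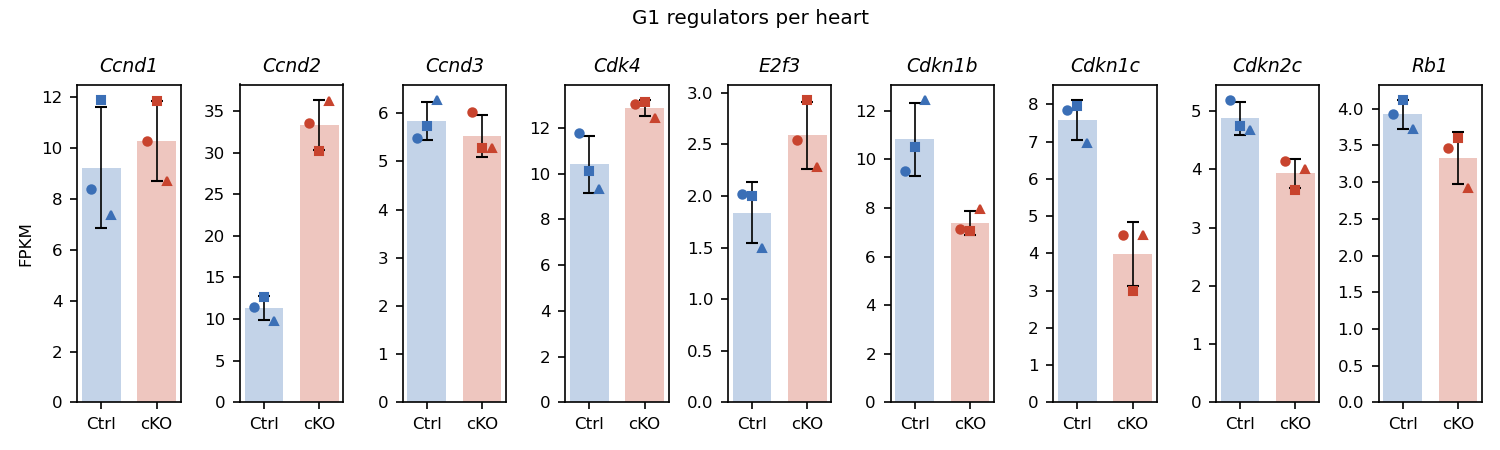
FPKM of 9 G1 regulators in Ctrl and cKO, with 1 point per heart (circle, replicate 1; square, replicate 2; triangle, replicate 3), bars at the group mean and error bars of 1 SD (n = 3). Ccnd2 lies at 9.83 to 12.7 FPKM in Ctrl and 30.2 to 36.2 FPKM in cKO, and the points of Cdkn1b, Cdkn1c, Cdkn2c and Rb1 lie lower in every cKO heart than in any Ctrl heart.

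Of the 4 brakes, 3 fell in cKO by limma and 2 by voom, where 17.0% and 13.2% of all genes tested were called lower. Cdkn1c, a strong inhibitor of G1 kinases that is known from cells that leave the cycle, stood at 7.85, 7.95 and 6.95 FPKM in Ctrl and 4.49, 3.00 and 4.48 FPKM in cKO. No cKO heart reached the Ctrl range, and the cKO mean was 52.7% of the Ctrl mean. The log2 fold change was −0.79 (SE 0.14, 95% interval −1.12 to −0.47, limma adjusted p = 0.00628), and −0.93 by voom (adjusted p = 0.00491). Without cKO replicate 2, the lowest heart, it was −0.64 (limma adjusted p = 0.00497). The antisense gene Gm44732, which shares 625 exon bases with Cdkn1c, was listed at 0 in all hearts.

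Cdkn1b, which holds cells in G1 by inhibiting cyclin E and cyclin A kinases, stood at 9.52, 10.5 and 12.5 FPKM in Ctrl and 7.14, 7.07 and 7.95 FPKM in cKO. The groups did not overlap, and the cKO mean was 68.2% of the Ctrl mean. The log2 fold change was −0.49 (SE 0.11, 95% interval −0.74 to −0.24, limma adjusted p = 0.0137), and −0.52 by voom (adjusted p = 0.0110). Without cKO replicate 2 it was −0.46 (limma adjusted p = 0.0338).

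Cdkn2c, an inhibitor that binds Cdk4 and Cdk6 directly, stood at 5.19, 4.74 and 4.68 FPKM in Ctrl and 4.13, 3.65 and 4.0 FPKM in cKO. Its groups were close but did not overlap. The difference on the log2(FPKM + 1) scale was −0.25 (SE 0.08, limma adjusted p = 0.0416), and −0.29 by voom (adjusted p = 0.107). The call was lost when any 1 of the 6 hearts was left out, with limma adjusted p from 0.0562 without cKO replicate 1 to 0.127 without Ctrl replicate 1. Rb1, the retinoblastoma protein that binds E2F factors, stood at 3.92, 4.12 and 3.72 FPKM in Ctrl and 3.47, 3.60 and 2.92 FPKM in cKO. These groups did not overlap, but the log2 fold change of −0.19 (95% interval −0.39 to 0.02) did not pass the test (limma adjusted p = 0.135).

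All 4 brake members were thus lower in every cKO heart than in any Ctrl heart. Outside the members, the kinase inhibitors Cdkn2d and Cdkn2b overlapped between the groups. Cdkn2d stood at 12.9 ± 1.53 FPKM in Ctrl and 10.6 ± 2.00 FPKM in cKO (limma adjusted p = 0.183), and Cdkn2b was under the limit for testing. Among the 23 members tested, 3 did not overlap on the higher side and 7 on the lower, where 24.8% and 26.4% of all genes did the same. The summed level of Cdkn1b, Cdkn1c and Cdkn2c was 23.3 ± 0.771 FPKM in Ctrl and 15.3 ± 1.41 FPKM in cKO (mean ± SD, n = 3 each). The ratio of Ccnd2 to Cdkn1b FPKM was 1.21, 1.21 and 0.789 in the Ctrl hearts and 4.70, 4.27 and 4.56 in the cKO hearts. The summed endothelial, mural and cardiomyocyte markers given above were also lower in cKO by mean, the first 2 without overlap, and their part in the lower brake values was not tested.

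The Cdkn1b promoter (chr6:134920221-134920430, plus strand) is shown as the brake with a call under all 15 alternatives for which a window was in the table. Capitals mark the CCAAT box, the site of the factor NF-Y, searched as CCAAT on both strands.
Cdkn1b: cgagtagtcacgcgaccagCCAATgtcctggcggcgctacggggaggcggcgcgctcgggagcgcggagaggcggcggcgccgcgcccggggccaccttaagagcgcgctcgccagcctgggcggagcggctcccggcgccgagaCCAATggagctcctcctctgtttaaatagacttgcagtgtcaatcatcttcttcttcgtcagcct
The CCAAT letters occurred in 2 of 3 windows of brakes, against 37.4% of all windows. The E2F letters occurred in 0 of 3. The E-box occurred in 1 of 3 (Cdkn2c), against 7.15% of all windows. No window for Cdkn1c or Rb1 was in the table used.

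**Figure D3:**
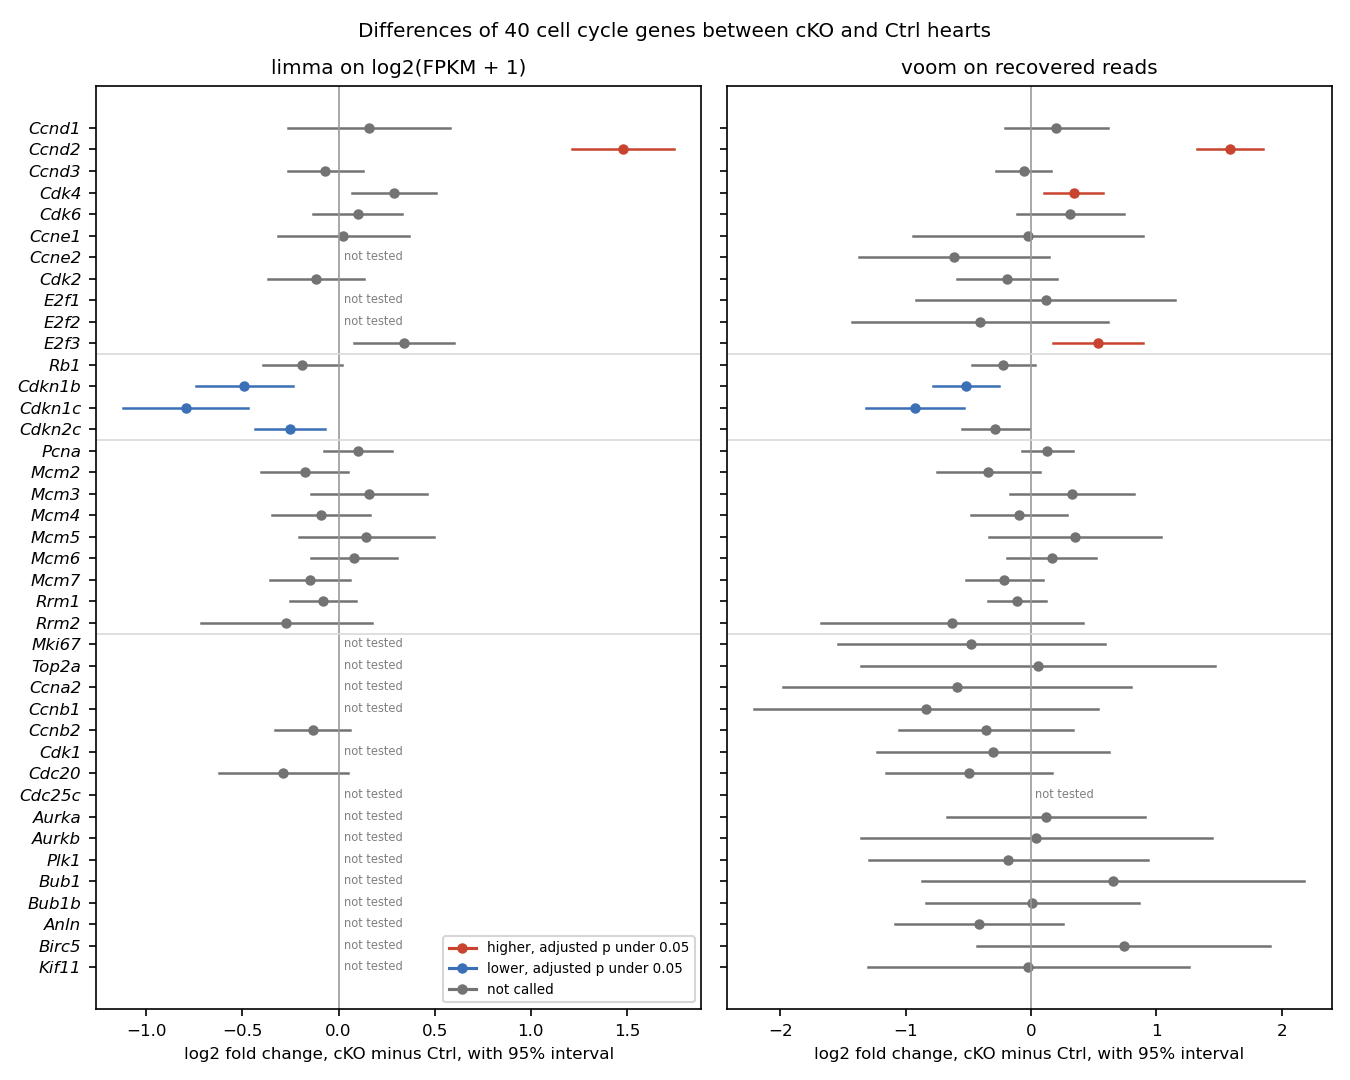
log2 fold change of cKO minus Ctrl with its 95% interval for each member, by limma on log2(FPKM + 1) on the left and by voom on recovered reads on the right; red and blue mark adjusted p under 0.05, and genes under the minimum are marked as not tested. Ccnd2 stands alone on the right of both panels (1.48 and 1.59), and the intervals of mitotic genes in the voom panel are the widest, from −2.21 to 2.18.

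The S phase members, which build and feed the replication fork, showed no call in either direction. All 9 were tested by both fits. The smallest adjusted p was 0.192 by limma and 0.207 by voom, and none of the 9 had an unadjusted p under 0.05 in either fit. 4 had a higher and 5 a lower mean, and the 95% intervals together spanned −0.71 to 0.49 on the log2(FPKM + 1) scale. Only Mcm2 and Rrm1 did not overlap between the groups. Both were lower in cKO, where 26.4% of all genes tested were lower without overlap.

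Pcna, the sliding clamp of DNA polymerase, was the highest of them. It stood at 16.5, 16.6 and 16.8 FPKM in Ctrl and 18.9, 16.5 and 18.4 FPKM in cKO (log2 fold change 0.10, 95% interval −0.08 to 0.28, limma adjusted p = 0.340). Its groups did not overlap without cKO replicate 2 (0.16, limma adjusted p = 0.128). Pcna lay above Ccnd1 and Ccnd3 in every heart, while the other 8 lay between 0.298 and 2.64 FPKM in single hearts. The 6 subunits of the Mcm2 to Mcm7 helicase, which opens DNA ahead of the fork, are needed in equal parts, and their mean levels ran from 0.770 FPKM (Mcm5) to 2.28 FPKM (Mcm7). Mcm3, Mcm5 and Mcm6 had the higher mean in cKO, and Mcm2, Mcm4 and Mcm7 the lower, with limma adjusted p from 0.192 to 0.547. Mcm5 turned to −0.01 without cKO replicate 2, the heart with its highest value (1.30 FPKM).

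Rrm1 and Rrm2 form ribonucleotide reductase, which makes the nucleotides for DNA. Rrm1 was at 1.48 ± 0.0887 FPKM in Ctrl and 1.35 ± 0.0154 FPKM in cKO (n = 3 each). Rrm2, the subunit that is made in S phase, was the lowest of this group, at 0.473, 1.27 and 0.418 FPKM in Ctrl and 0.298, 0.510 and 0.373 FPKM in cKO. The log2 fold change was −0.27 (95% interval −0.71 to 0.17, limma adjusted p = 0.302), and −0.63 by voom. The groups did not overlap without cKO replicate 2 (−0.33, limma adjusted p = 0.288). Ctrl replicate 2 stood above all other hearts for Rrm2, a pattern that returned in the mitotic genes. The 9 genes together took 94.2, 89.5 and 94.8 RPM (reads scaled to the library's reads in genes) in Ctrl and 102, 105 and 101 RPM in cKO. Their summed FPKM was 27.6 ± 0.229 in Ctrl and 28.3 ± 0.170 in cKO (mean ± SD, n = 3 each). Most of it was Pcna, at 16.6 ± 0.188 FPKM in Ctrl and 17.9 ± 1.27 FPKM in cKO, so these sums do not describe the other genes. The library size behind the FPKM values was 0.913 to 0.980 times the reads in genes in Ctrl and 1.06 times in cKO. RPM therefore sets cKO higher against Ctrl than FPKM does.

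The Mcm6 promoter (chr1:128359676-128359885, minus strand) is shown as an S phase gene with E2F letters, marked in capitals. It held 3 matches, the first 2 of which overlap on opposite strands.
Mcm6: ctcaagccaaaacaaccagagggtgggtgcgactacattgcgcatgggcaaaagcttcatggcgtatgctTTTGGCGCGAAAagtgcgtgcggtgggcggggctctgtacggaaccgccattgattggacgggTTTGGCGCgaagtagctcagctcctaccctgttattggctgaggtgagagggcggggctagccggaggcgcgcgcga
E2F letters occurred in 5 of 9 windows of S phase members (55.6%), against 3.89% of all windows, and CCAAT in 9 of 9, against 37.4%.

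The mitotic members were near the limit of detection. 15 of the 16 had a mean under 1 FPKM, and the reads of 1 gene over all 6 hearts ran from 8 (Cdc25c) to 448 (Mki67). Only Cdc20 and Ccnb2 could be tested by limma. Cdc20, which activates the complex that ends metaphase, was the highest, at 1.26, 1.54 and 1.15 FPKM in Ctrl and 0.569, 1.22 and 0.958 FPKM in cKO. The log2 fold change of Cdc20 was −0.29 (95% interval −0.62 to 0.05, limma adjusted p = 0.160), and −0.49 by voom. Its groups overlapped, but only through cKO replicate 2, without which the log2 fold change was −0.40 (limma adjusted p = 0.0671). Ccnb2, a B-type cyclin, stood at 0.582, 0.597 and 0.648 FPKM in Ctrl and 0.424, 0.559 and 0.415 FPKM in cKO, without overlap (−0.14, limma adjusted p = 0.248, voom −0.36).

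Mki67 was at 0.302, 0.616 and 0.267 FPKM in Ctrl, from 58, 129 and 65 reads, and at 0.123, 0.490 and 0.237 FPKM in cKO, from 21, 115 and 60 reads. The highest heart of each group was replicate 2. The groups overlapped through cKO replicate 2 alone, as both other cKO hearts lay below the lowest Ctrl heart (exact permutation test, two-sided, p = 0.5, where 3 against 3 hearts allow no p below 0.1). By voom the log2 fold change was −0.47, with a 95% interval from −1.54 to 0.59. The interval reaches past a 2-fold fall, so a fall of that size could not be told from no change with this spread between 3 hearts a group. Top2a, the topoisomerase that untangles replicated DNA, was at 0.209, 0.464 and 0.110 FPKM in Ctrl and 0.0852, 0.428 and 0.229 FPKM in cKO (exact permutation p = 0.8, voom 0.05, interval −1.36 to 1.47). Cdk1, the kinase of mitotic entry, was at 0.170, 0.253 and 0.151 FPKM in Ctrl and 0.0838, 0.148 and 0.218 FPKM in cKO (exact permutation p = 0.4, voom −0.30, interval −1.23 to 0.62).

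Cdc25c, the phosphatase that switches Cdk1 on, had 2, 0 and 1 reads in Ctrl and 0, 4 and 1 reads in cKO, or 0.0540, 0 and 0.0213 FPKM and 0, 0.0883 and 0.0205 FPKM. A count of 0 allows up to 3 reads, so no difference was detectable at this depth. Of the 15 mitotic members that voom could test, 0 were called and 0 had an unadjusted p under 0.05. 6 had a higher and 9 a lower estimate, from −0.83 (Ccnb1) to 0.74 (Birc5), and limma called 0 of its 2, with 0 at an unadjusted p under 0.05.

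For 12 of the 16 mitotic members the SD of at least 1 group was larger than the difference between the group means. The exceptions were Ccnb1, Ccnb2, Cdc20 and Anln. Ctrl replicate 2 was the highest of its group for 12 of 16 members and cKO replicate 2 the highest of its group for 12 of 16, while cKO replicate 1 was the lowest for 13 of 16 and Ctrl replicate 3 for 10 of 16. The 16 genes together took 16.6, 26.1 and 13.5 RPM in Ctrl and 10.8, 24.7 and 16.4 RPM in cKO. The group means were 18.7 ± 6.59 and 17.3 ± 6.98 RPM (SD, n = 3 each). In summed FPKM, a scale that sets cKO lower against Ctrl, they were 5.02 ± 1.47 and 4.16 ± 1.30. Without cKO replicate 2 the cKO values, 10.8 and 16.4 RPM, still overlapped those of Ctrl. Ccnb1 and Anln, like Cdc20 and Mki67, overlapped only through that heart. Without it, 5 of 16 mitotic members were lower without overlap and 0 higher. Groups with fewer hearts separate more readily, and the share of all genes without this heart was not counted. These counts can therefore not be read as a difference of the mitotic members. Before scaling, the mitotic sums were 323, 595 and 335 reads in Ctrl and 173, 543 and 390 reads in cKO. The cardiomyocyte marker sum followed the order of the RPM values within each group, at 17924, 22273 and 17522 FPKM in Ctrl and 10622, 18087 and 13006 FPKM in cKO, and its part in the mitotic values was not tested. The lymphocyte marker sum was highest in cKO replicate 2 (1.31 FPKM), but Ctrl replicate 2 was the lowest of its group (0.738 FPKM).

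**Figure D4:**
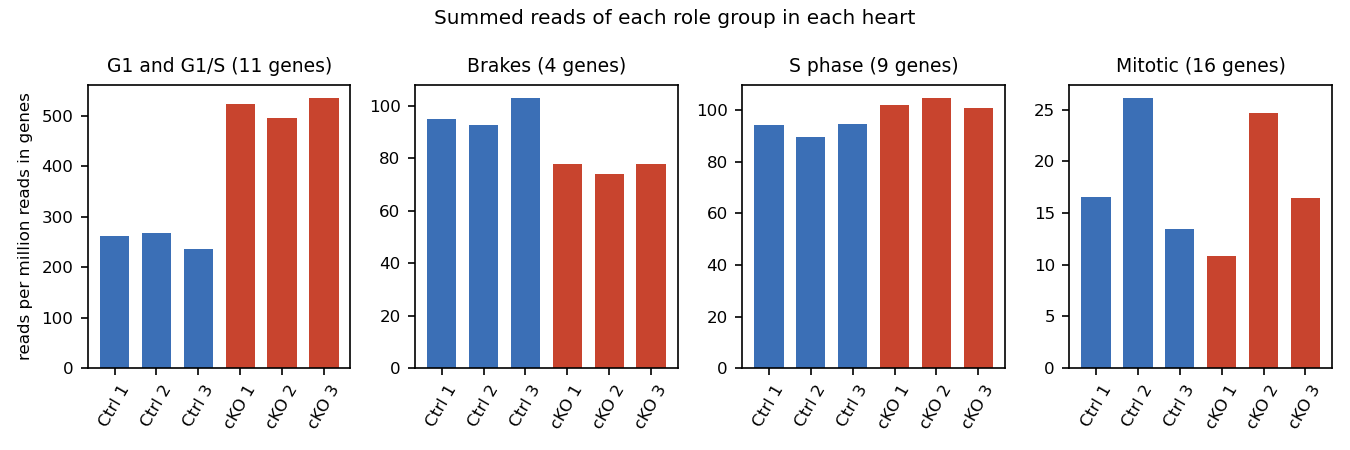
Reads scaled to the library total (RPM) and summed over the members of each role group, 1 bar per heart, Ctrl in blue and cKO in red, with an axis from 0 in each panel. G1 bars lie at 236 to 268 in Ctrl and 496 to 535 in cKO, a gap set mainly by Ccnd2 (89.9 to 109 and 302 to 361), and brake bars at 92.8 to 103 and 74.1 to 78.0. Mitotic bars of the 2 groups overlap (13.5 to 26.1 and 10.8 to 24.7), with replicate 2 the tallest of each. RPM sets cKO higher against Ctrl than FPKM does.

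The genes whose values most resembled those of Mki67 over the 6 hearts, by Pearson correlation of log2(FPKM + 1) among all genes tested, were Parp2 (r = 0.998), Gm49490 (0.995), Acsf3 (0.992), Casq2 (0.985) and Ivns1abp (0.973). With 6 points and a search over the whole table these are a description. Casq2, the calcium-binding protein of the cardiomyocyte sarcoplasmic reticulum, stood at 213, 326 and 218 FPKM in Ctrl and 174, 260 and 196 FPKM in cKO, the same order of hearts as for Mki67 but for replicates 1 and 3 of Ctrl. Among the other mitotic members the correlation with Mki67 over the same 6 hearts ran from −0.56 (Aurka) to 0.97 (Plk1), and all values share the depth of their library.

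Promoters of Mki67 (chr7:135716350-135716559), Cdk1 (chr10:69352883-69353092) and Cdc20 (chr4:118437314-118437523), all on the minus strand, are shown because mitotic genes share a short promoter element, the cell cycle genes homology region or CHR. Through it the DREAM and MuvB complexes hold such genes silent in resting cells and switch them on in G2. Capitals mark its letters, searched as TTTGAA and TTCGAA on both strands.
Mki67: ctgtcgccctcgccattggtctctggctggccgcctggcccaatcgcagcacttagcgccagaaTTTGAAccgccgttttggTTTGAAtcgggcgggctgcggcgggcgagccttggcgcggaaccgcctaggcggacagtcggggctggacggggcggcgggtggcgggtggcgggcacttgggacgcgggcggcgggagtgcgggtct
Cdk1: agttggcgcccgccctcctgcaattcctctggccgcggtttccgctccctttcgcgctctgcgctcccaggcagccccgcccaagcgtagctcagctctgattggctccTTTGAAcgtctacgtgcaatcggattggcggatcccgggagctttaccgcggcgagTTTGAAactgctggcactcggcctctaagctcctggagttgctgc
Cdc20: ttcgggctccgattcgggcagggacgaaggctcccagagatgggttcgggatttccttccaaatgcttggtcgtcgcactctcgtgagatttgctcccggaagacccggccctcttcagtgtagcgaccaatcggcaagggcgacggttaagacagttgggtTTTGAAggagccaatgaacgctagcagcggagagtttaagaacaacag
CHR letters occurred in 11 of 13 windows of mitotic members (84.6%), in 2 of 9 windows of S phase members (22.2%), in 2 of 11 of G1 members (18.2%) and in 0 of 3 of brakes, against 19.2% of all windows. E2F letters showed the opposite spread, with 1 of 13 mitotic windows (7.69%) and 5 of 9 S phase windows. The mitotic windows also held CCAAT in 11 of 13. RefSeq windows were found for 31 of the 40 genes, 5 of them with 2 windows.

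**Figure D5:**
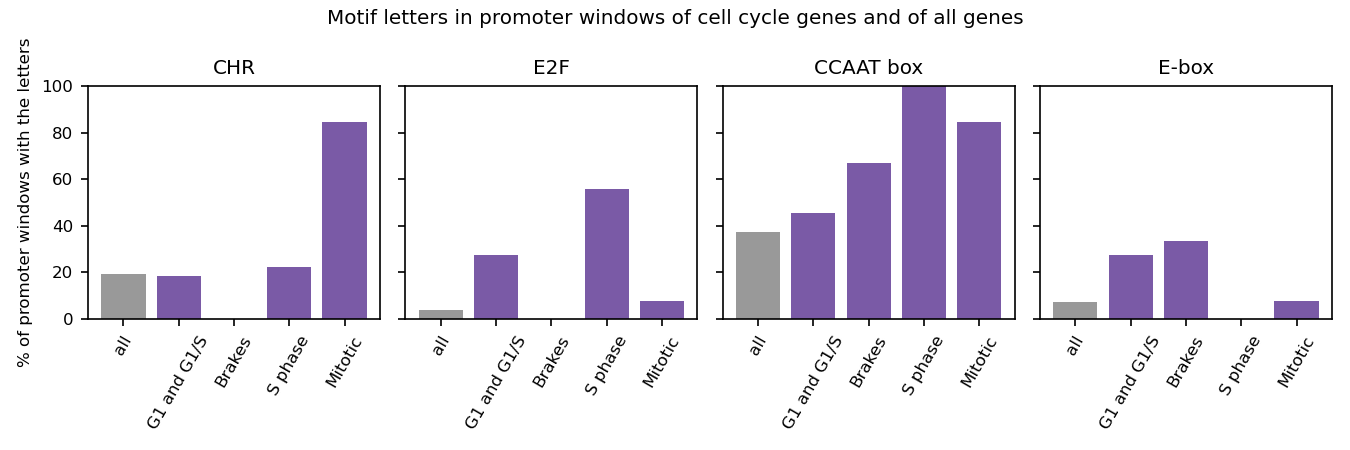
Percent of promoter windows (250 bases before to 50 after the start) that hold the CHR, E2F, CCAAT box or E-box letters, for all 32851 windows in grey and for the windows of each role group in purple (11 G1 and G1/S, 3 brake, 9 S phase and 13 mitotic windows). CHR is at 84.6% in mitotic windows and 19.2% in all, and E2F at 55.6% in S phase windows and 3.89% in all.

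Other genes of the same pathways were read from wider lists. Of 24 other G1 and brake genes, 17 were tested, 3 were called higher and 5 lower, where 16.3% of all genes tested were called higher and 17.0% lower. Tfdp2, one of the partners with which E2F factors bind DNA, stood at 8.97, 10.2 and 11.4 FPKM in Ctrl and 5.63, 2.88 and 6.25 FPKM in cKO (log2 fold change −0.96, limma adjusted p = 0.0201). Tfdp1, another such partner, stood at 7.03 ± 0.471 FPKM in Ctrl and 6.69 ± 0.527 FPKM in cKO, with overlapping groups (limma adjusted p = 0.596). Ccng2, an atypical cyclin linked to exit from the cycle, fell from 5.27 ± 0.469 to 2.40 ± 0.922 FPKM (−0.92, limma adjusted p = 0.0153, voom −1.22). In Tfdp2 and Ccng2, cKO replicate 2 was the lowest heart. Without it their log2 fold changes were −0.68 (limma adjusted p = 0.00839) and −0.67 (limma adjusted p = 0.00521). In contrast, Lin37, a subunit of the MuvB core, rose from 6.10 ± 0.176 to 9.27 ± 1.66 FPKM (0.52, limma adjusted p = 0.0159), and Mnat1, a subunit of the kinase that activates other cyclin-dependent kinases, from 2.93 ± 0.468 to 4.47 ± 0.649 FPKM (0.48, limma adjusted p = 0.0265). The other calls were E2f4, higher, and Rbl2, E2f6 and Ccng1, lower. Of these, Rbl2 was picked out after its values were seen, as the pocket protein that works beside Rb1 in resting cells: it stood at 6.05, 5.94 and 6.65 FPKM in Ctrl and 3.69, 3.31 and 3.83 FPKM in cKO (−0.65, limma adjusted p = 0.00231). The 3 calls on the higher side went to 0 without Ctrl replicate 1 and to 1 without Ctrl replicate 2, Ctrl replicate 3 or cKO replicate 1, and the 5 on the lower side to 3 without Ctrl replicate 3.

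Of 44 other S phase genes, 29 were tested, 2 were called higher and 6 lower, against the same 16.3% and 17.0%. Gmnn, which encodes geminin, the inhibitor of replication licensing, stood at 45.8, 47.5 and 45.4 FPKM in Ctrl and 18.2, 17.7 and 22.2 FPKM in cKO. It was more abundant than any S phase member in each Ctrl heart, and no cKO heart reached the Ctrl range (log2 fold change −1.22, SE 0.10, limma adjusted p = 0.000728, and −1.16 without cKO replicate 2). Dut, the enzyme that keeps uracil out of DNA, fell from 7.12 ± 0.472 to 3.51 ± 0.245 FPKM (−0.85, limma adjusted p = 0.00111). Gins3, a subunit of the replicative helicase, rose from 0.397 ± 0.0772 to 0.810 ± 0.111 FPKM (0.37, limma adjusted p = 0.0198, voom 1.04). Rfc3, a subunit of the clamp loader, rose from 0.633 ± 0.160 to 1.09 ± 0.130 FPKM (0.36, limma adjusted p = 0.0381, voom 0.79). These 2 calls on the higher side went to 0 without Ctrl replicate 3 or cKO replicate 1 and to 1 without any of the other hearts but Ctrl replicate 2, and the 6 on the lower side to 2 without Ctrl replicate 2 and to 3 without Ctrl replicate 1 or cKO replicate 1.

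Of 47 other mitotic genes, 12 were tested, 0 were called higher and 5 lower, against the same 16.3% and 17.0%. Spc24, a subunit of the outer kinetochore, stood at 2.18, 2.26 and 2.01 FPKM in Ctrl and 0.666, 0.583 and 0.664 FPKM in cKO (log2 fold change −0.94, limma adjusted p = 0.000735, voom −1.71, and −0.92 by limma without cKO replicate 2). It differed little between the hearts of a group. Cenpa, the histone of centromeres, fell from 4.59 ± 1.21 to 2.18 ± 0.808 FPKM (−0.82, limma adjusted p = 0.0269, voom −1.04, and −1.01 by limma without cKO replicate 2). The other calls were Pttg1, Ncapd2 and Wee1. The 5 calls went to 2 without Ctrl replicate 2 and to 3 without Ctrl replicate 1, Ctrl replicate 3 or cKO replicate 3. The lists, like the members, were not tested as sets.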

How the data were processed

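RNA was sequenced from 3 Ctrl and 3 cKO hearts, grouped by sample title. The authors prepared poly-A libraries, aligned paired reads with HISAT2 (2.0.5), counted reads per gene with featureCounts (1.5.0-p3) and deposited FPKM values of 54532 genes with the gene length, a gene-level value of other kind. Their processing notes name mm9, but start and end of 53585 genes equal those of GENCODE mouse release 21 (GRCm38). Strand and multiple alignments are not stated. The authors' own test used DESeq2 on counts.

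FPKM times gene length was a whole multiple of 1 step in 100% of values (within 0.01 read), which gave back the read counts: 19464289, 22772851 and 24875499 in Ctrl and 15989322, 21982256 and 23749804 in cKO. Hearts of a group differed by more than counting noise (mean chi-square per gene 14.3 to 47.3). Genes whose mean over the 6 hearts reached 0.5 FPKM were tested by limma 3.58.1 (R 4.3.3, intensity trend, two-sided, no covariates) on log2(FPKM + 1). Adjusted p-values are Benjamini-Hochberg over all genes tested, and 0.05 was the threshold. Voom on reads (at least 20 in all, libraries scaled by median of ratios) and 14 other settings served as alternatives. Fits were tested on simulated data. The limma and voom p-values set the difference of group means against the spread of hearts within groups, moderated over all genes tested.

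Named with all values were members called by limma or voom, the highest and lowest of each role group, and Mki67, Top2a, Cdk1, Ccnd1, Ccnd2, Ccnd3, Cdk4, Cdkn1b and Cdkn1c, and, from each other list, up to 2 largest increases and 2 largest decreases among calls without overlap. The 5 genes most like Mki67 were taken by Pearson r. The members and lists were chosen with earlier results of these data known.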

Additional observations from a re-analysis of the deposited data

How the results depend on the processing

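The calls of Ccnd2, Cdkn1b and Cdkn1c held under all 15 alternatives. Cdk4 gained a call in 5, E2f3 in 4, and Cdkn2c lost its call in 12. The members called higher, 1 in the reported fit, were 2 with a minimum mean of 1 FPKM, 3 with median-of-ratios scaling, 3 with scaling without genes of mitochondrial DNA, 3 by voom and 1 to 2 when 1 heart was left out. Those called lower were 2 to 3 throughout. With single hearts left out, other G1 and brake genes called higher (3) numbered 0 to 3 and lower (5) 3 to 5, other S phase genes higher (2) 0 to 2 and lower (6) 2 to 5, and other mitotic genes lower (5) 2 to 5. All genes called higher (2110) were 1396 (without Ctrl replicate 3) to 1977 and lower (2205) 1423 (without Ctrl replicate 2) to 2011. With no filter on low values, counts were 1 for other G1 genes higher, 1 for other S phase genes higher and 3 for other mitotic genes lower. Other S phase genes called higher were 0 with a minimum of 1 FPKM, 4 with median-of-ratios scaling, 4 by voom, and 5 with scaling without genes of mitochondrial DNA, which left 3 other S phase and 3 other mitotic genes lower. Small differences changed sign for Ccnd3 (0.011, scaling without genes of mitochondrial DNA), Ccne1 (−0.026 by voom, and −0.043 without Ctrl replicate 2 to 0.155 without cKO replicate 2) and Mcm5 (−0.013 without cKO replicate 2 to 0.251 without cKO replicate 1). The cause of these shifts was not tested.

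Replicate numbers did not pair the hearts: deviations of same-numbered hearts correlated at −0.06, 0.17 and −0.01, and not every heart matched best with its own number. With the number as a replicate block, 2 members were called higher, E2f3 being the added one (adjusted p = 0.0363), 2 were called lower, Cdkn2c being lost (adjusted p = 0.0605), and 1 other S phase gene was called higher. Low levels limit the mitotic genes above all, 14 of 16 of which were under the 0.5 FPKM minimum. Spread between hearts limits them too: in 12 of 16 the SD of at least 1 group exceeded the difference of means.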

Other observations

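Exons of 15 of the 40 genes overlap those of another gene, and in 8 cases a neighbour on the opposite strand had a mean of at least 0.5 FPKM. Besides Tspan31 at Cdk4, these included Bysl at Ccnd3 (361 shared bases, 8.72 ± 0.513 FPKM in Ctrl and 17.1 ± 1.36 FPKM in cKO), Elovl1 at Cdc20 (53 bases, 5.47 ± 0.836 and 10.8 ± 2.31 FPKM) and Oraov1 at Ccnd1 (1100 bases, 2.50 ± 0.213 and 2.49 ± 0.290 FPKM), with n = 3 hearts a group. At Ccnd2, the antisense gene 9330179D12Rik shares 368 bases and had a mean of 0.321 FPKM over the 6 hearts. Among processed copies, Ccnb2-ps was at 0.343, 0.335 and 0.414 FPKM in Ctrl and 0.154, 0.131 and 0.208 FPKM in cKO, and how reads were divided between it and Ccnb2 is not stated.

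Cenpf, a kinetochore protein of G2 and mitosis, was under the minimum for limma and was picked out after its values were seen. It stood at 0.629, 0.713 and 0.860 FPKM in Ctrl and 0.0689, 0.0583 and 0.242 FPKM in cKO, with a log2 fold change of −2.78 by voom (adjusted p = 0.00187). Its groups did not overlap.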
